A study of Drosophila melanogaster with 22 samples.

Results

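The transcripts described here encode the kinases and cyclins that act on RNA polymerase II beside Cdk8 and its partner CycC. They are Cdk7 with CycH, Cdk9 with CycT, and Cdk12 with CycK. A gene was included when the array annotation gave its symbol, and no other, to a probe set (the group of short oligonucleotides that measures 1 transcript). Each of the 6 genes had 1 such probe set, and all 6 passed the floor on dim signals, so that they stand as 6 among 5961 genes tested.

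A cyclin-dependent kinase is active only when its cyclin is bound. Cdk7, CycH and the assembly factor Mat1 form the kinase module of the initiation factor TFIIH, which phosphorylates the repetitive tail of RNA polymerase II as transcription starts and also activates cell cycle kinases. Cdk9 and CycT form P-TEFb, which releases polymerase that has paused shortly after the start of a gene, and Cdk12 with CycK phosphorylates the tail further along the gene.

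The study was made in S2 cells, an embryonic Drosophila melanogaster line with features of haemocytes (fly blood cells), and measured RNA on 22 Affymetrix arrays. Cells received 20 µg of double-stranded RNA (dsRNA), which degrades the matching transcript, and were collected after 72 h. The groups were Cdk8 dsRNA (2 arrays), CycC dsRNA (4 arrays), Med12 dsRNA (4 arrays) and Med13 dsRNA (4 arrays), against GFP dsRNA (4 arrays) and Luc dsRNA (4 arrays), which target reporter genes foreign to the fly and together gave 8 control arrays. Cdk8, CycC, Med12 and Med13 make up the kinase module of Mediator, the complex that links transcription factors to RNA polymerase II, and each knockdown was compared with the controls to see what loss of that subunit did to gene expression. All cells, the controls included, were of the same line and carried dsRNA, and nothing in the labels shows that replicate arrays stand for independent cultures. The p-values therefore measure a spread that may be technical.

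The targeted transcripts bore out the labels to different degrees. Cdk8 fell to 14.4% of the control level in Cdk8 dsRNA cells (log2 level 4.72 against 7.52 in controls; limma, adjusted p = 1.02e-18). CycC fell to 3.56% in CycC dsRNA cells, and kto, the fly gene for Med12, fell to 9.98% in Med12 dsRNA cells (adjusted p = 1.72e-20 and 2.16e-19). The fly gene for Med13, skd, fell only to 80.6% in Med13 dsRNA cells (8.68 against 8.99; adjusted p = 7.76e-05), and whether its probe set lies outside the region covered by the dsRNA is not given in the sources used here. Between 7175 and 7214 probe sets passed the floor on each array, and any 2 arrays sharing a dsRNA correlated at 0.996 or more. Of 12 haemocyte markers, 9 were over the floor on all 22 arrays and NimC1 was below it on all of them. Of 7 markers of nerve, glia, muscle, fat, yolk and germ line, 6 were below the floor on every array and elav was over it.

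The 6 kinase and cyclin transcripts differed little between knockdown and control cells. In 24 comparisons (6 transcripts in 4 knockdowns) the largest difference was a log2 value of 0.18, or 1.13-fold, and 18 of the 24 were under 0.1. CycH passed the test in Med12 dsRNA cells and in Med13 dsRNA cells, and these were the only 2 of the 24 that did. None of the 6 passed in Cdk8 dsRNA cells, where 18.7% of all genes did, and none in CycC dsRNA cells, where 24.2% did. In both Med12 dsRNA cells (41.9% of all genes) and Med13 dsRNA cells (32.2%) the count was 1 of 6. At an unadjusted p under 0.05, 0 of 6 stood out in Cdk8 dsRNA cells and 1 of 6 in CycC dsRNA cells, where 31.2% and 35% of all genes did.

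The median size of the 24 differences was 0.04 on the log2 scale, beside 0.09 over all genes and the same comparisons. In 20 of the 24 the 95% confidence interval, unadjusted for the number of intervals, lay within 1.2-fold of the control level in both directions. These intervals rest on a spread between arrays that may be technical, so that they set no firm bound on a missed change. The shares of all genes with such intervals, or with differences under 0.1, were not counted. The 4 knockdowns share the 8 control arrays, so that a high or low control moves all 4 comparisons together. The contrast of Med12 and Med13 dsRNA cells with Cdk8 and CycC dsRNA cells uses no control array. In that contrast 2 of 6, Cdk7 and CycH, passed, where 49.1% of all genes did. Because RNA came from whole cultures, fewer cells expressing a transcript and less of it in each cell cannot be told apart.

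**Figure D1:**
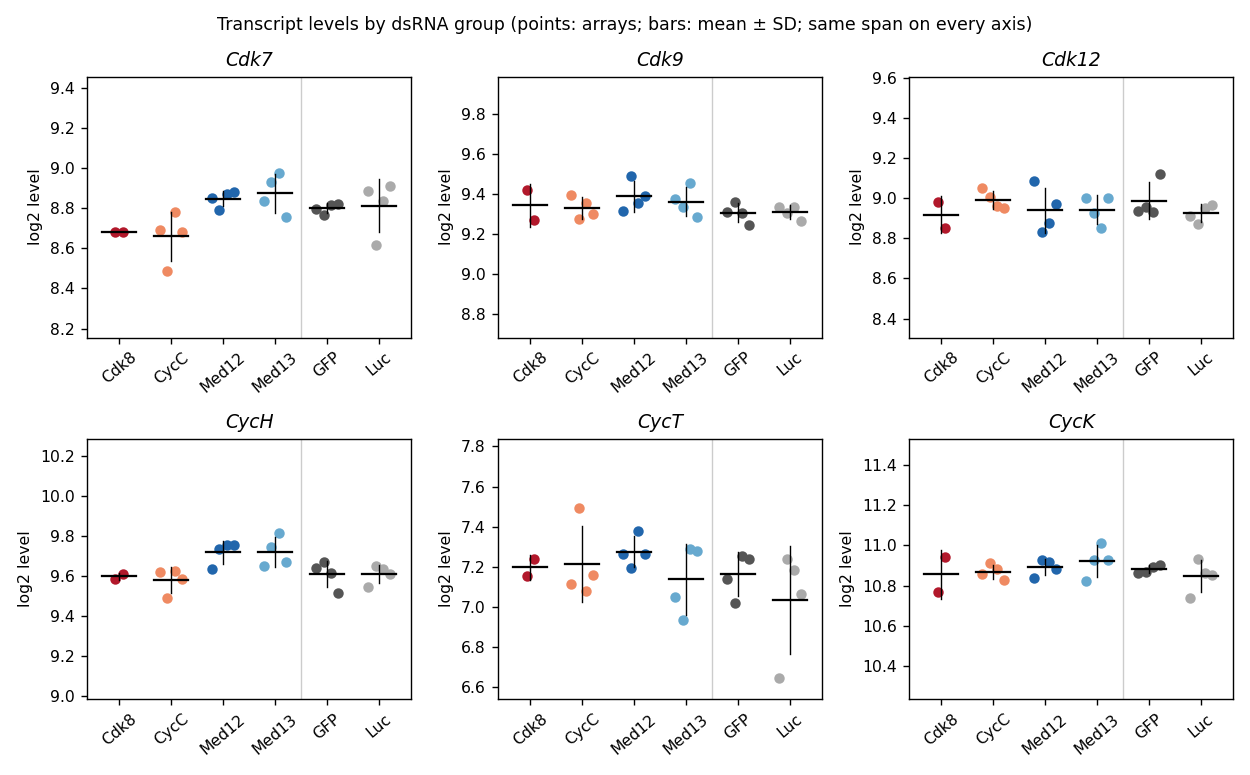
Log2 level of each transcript (vertical axis, spanning the same number of log2 units in every panel) on each array, by dsRNA group (horizontal axis, knockdowns left and controls right of the grey line); points are arrays and bars are the mean ± SD. Cdk7 and CycH sit higher in Med12 and Med13 dsRNA cells than in Cdk8 and CycC dsRNA cells, and the lowest CycT value, 6.64, belongs to 1 Luc array.

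Cdk7, the kinase of TFIIH, passed in the contrast between the kinds of knockdown and in none against the controls. Its log2 level was 8.68 and 8.68 on the Cdk8 dsRNA arrays, 8.69, 8.49, 8.78 and 8.68 on the CycC dsRNA arrays, 8.85, 8.79, 8.87 and 8.88 on the Med12 dsRNA arrays, and 8.84, 8.93, 8.97 and 8.75 on the Med13 dsRNA arrays, while the 8 controls ran from 8.62 to 8.91 with a median of 8.82. The Cdk8 and CycC arrays were thus low and the Med12 and Med13 arrays high, with controls spanning most of the range. All 8 Med12 and Med13 arrays lay above the median of the 6 Cdk8 and CycC arrays, and 7 of the 8 lay above all 6, the exception being Med13 array 4 at 8.75, below CycC array 3 at 8.78.

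Cdk7 averaged 8.86 in Med12 and Med13 dsRNA cells and 8.67 in Cdk8 and CycC dsRNA cells. It was higher by a log2 value of 0.19 ± 0.05 (SE), or 114.1% of the Cdk8 and CycC level (95% confidence interval 106.2% to 122.5%; limma, adjusted p = 0.00327). This call was kept in all 32 refits, with differences from 0.16 to 0.21 and adjusted p from 0.000837 to 0.0219.

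Against the controls no Cdk7 difference passed. The level in CycC dsRNA cells was 90.3% of the control level (8.66 ± 0.12 against 8.81 ± 0.09, SD, n = 4 and 8; limma, adjusted p = 0.0541), with an interval from 83.6% to 97.7%. That difference, a log2 value of -0.15, lay just beyond the threshold and passed when arrays were centred on their medians (adjusted p = 0.0352), after quantile normalization (0.0417) and with the replicate block (0.0349). It also passed without CycC array 3 (-0.19, adjusted p = 0.0284) or Luc array 2 (-0.18, adjusted p = 0.00824), and without Med13 array 3 (adjusted p = 0.0492) or Med13 array 4 (0.0467), so that the side of the threshold depended on single arrays. The level in Cdk8 dsRNA cells was 91.8% (8.68 against 8.81; adjusted p = 0.241), and in Med12 and Med13 dsRNA cells 102.9% and 104.8% (adjusted p = 0.566 and 0.367). The levels ordered as Med13, Med12, Luc, GFP, Cdk8 and CycC, and only GFP and Cdk8 were neighbours whose arrays did not overlap.

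CycH, the cyclin that activates Cdk7, was slightly higher in Med12 and Med13 dsRNA cells. Its log2 level was 9.63, 9.73, 9.76 and 9.75 on the Med12 dsRNA arrays and 9.65, 9.75, 9.81 and 9.67 on the Med13 dsRNA arrays, against a range from 9.51 to 9.67 with a median of 9.63 on the 8 controls. In each of these knockdowns 3 of 4 arrays were above all 8 controls, and Med12 array 1 and Med13 array 1 fell inside the control range. Med13 array 4 was barely above the highest control, GFP array 2 (9.671 against 9.668). The Cdk8 dsRNA arrays, at 9.58 and 9.61, and the CycC dsRNA arrays, at 9.62, 9.49, 9.62 and 9.59, lay within the control range except for CycC array 2, which was below it.

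CycH rose by a log2 value of 0.11 ± 0.04 (SE) in Med12 dsRNA cells, to 107.9% of the control level (interval 101.9% to 114.1%; limma, adjusted p = 0.03). It rose by 0.11 ± 0.04 in Med13 dsRNA cells, to 108.0% (interval 102.1% to 114.3%; adjusted p = 0.0341). In Cdk8 dsRNA cells it was 99.2% and in CycC dsRNA cells 98.0% of the control level (adjusted p = 0.907 and 0.645). Averages were 9.72 in Med12 and Med13 dsRNA cells and 9.59 in Cdk8 and CycC dsRNA cells, a difference of 0.13 ± 0.04, or 109.5% (interval 104.0% to 115.3%; adjusted p = 0.00469). All 8 Med12 and Med13 arrays lay above all 6 Cdk8 and CycC arrays, as they did for 13% of all genes.

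The rise against controls lay close to the threshold. It was lost in Med12 dsRNA cells without Med12 array 2 (0.10, adjusted p = 0.0723), Med12 array 3 (0.10, 0.0881), Med12 array 4 (0.10, 0.09), GFP array 4 (0.093, 0.058) or Luc array 1 (0.10, 0.0531). In Med13 dsRNA cells it was lost without Med13 array 2 (0.10, adjusted p = 0.0935), Med13 array 3 (0.080, 0.163), GFP array 4 (0.10, 0.066) or Luc array 1 (0.10, 0.0606). Centring the arrays on their medians gave 0.085 in Med12 dsRNA cells (adjusted p = 0.0574) and 0.079 in Med13 dsRNA cells (0.0956), and neither call was made against GFP alone (0.0644 and 0.0732) or Luc alone (0.0662 and 0.0789).

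Measures of RNA quality moved with the CycH level to different degrees. The arrays carry control probe sets at the 3′ and 5′ ends of Act5C, GAPDH and eIF-4a. The log2 ratio of their signals grows when 5′ ends are under-represented in the labelled RNA. The eIF-4a ratio ran from 1.47 to 1.56 on the Med12 dsRNA arrays and from 1.38 to 1.64 on the Med13 dsRNA arrays. It was 1.47 to 1.71 on the controls, 1.65 and 1.74 on the Cdk8 dsRNA arrays and 1.52 to 1.64 on the CycC dsRNA arrays. Median GAPDH ratios were also lower in Med12 and Med13 dsRNA cells, at 3.11 and 3.00 against 3.28 in controls. Median Act5C ratios were higher there, at 1.40 and 1.36 against 1.35. In Cdk8 and CycC dsRNA cells the medians were 3.21 and 3.23 for GAPDH and 1.43 and 1.47 for Act5C. Across the 22 arrays the CycH level fell as the eIF-4a ratio grew, with Pearson's r = -0.69. The permutation p was 0.00037 (Benjamini-Hochberg adjusted 0.00666 over 18 relations of 6 transcripts with 3 control genes). Spearman's rho was -0.62 (permutation p = 0.00235, adjusted 0.0374), and r was -0.64 without the 2 arrays farthest from the median ratio. Within groups r was -0.65 (permutation p = 0.00628, adjusted 0.113). With the GAPDH ratio r was -0.64 (permutation p = 0.00159, adjusted 0.0138) and rho -0.54 (permutation p = 0.0119, adjusted 0.0715). Within groups that r was -0.49 (permutation p = 0.0586, adjusted 0.264). With the Act5C ratio r was -0.17 (permutation p = 0.443, adjusted 0.532), and 0.05 without the 2 farthest arrays.

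With the mean of the Act5C, GAPDH and eIF-4a ratios as a covariate, an alternative chosen after seeing the data, CycH passed in no contrast. Its difference was 0.079 in Med12 dsRNA cells (adjusted p = 0.104), 0.064 in Med13 dsRNA cells (adjusted p = 0.284) and 0.078 between Med12 and Med13 and Cdk8 and CycC dsRNA cells (adjusted p = 0.12). Over all genes, 1366 rose and 895 fell past the threshold in Med12 dsRNA cells with the covariate, against 1577 and 922 without it. In Med13 dsRNA cells these counts were 825 and 582, against 1249 and 669. Between Med12 and Med13 and Cdk8 and CycC dsRNA cells they were 1228 and 1168, against 1602 and 1326. Cdk7 kept its difference of 0.19 in the last contrast (adjusted p = 0.0219). Its level had r = -0.36 with the eIF-4a ratio (permutation p = 0.0984, adjusted 0.191), rho = -0.33 (permutation p = 0.129, adjusted 0.259) and r = -0.15 without the 2 farthest arrays. With the Act5C ratio r was -0.41 (permutation p = 0.0561, adjusted 0.16), and -0.23 without the 2 farthest arrays. Within groups that r was 0.00 (permutation p = 0.996, adjusted 0.996). With the GAPDH ratio r was -0.18 (permutation p = 0.434, adjusted 0.532). Haemocyte markers also moved with these groups. Their summed intensity was 64975 to 67726 in Med12 and 69514 to 74088 in Med13 dsRNA cells, against 74021 to 80590 over the controls. It was 80130 to 81366 in Cdk8 and 76753 to 79370 in CycC dsRNA cells. The markers vkg and Col4a1 were the brightest, so that the sum follows them most. In Med12 and Med13 dsRNA cells 9 of 11 and 7 of 11 markers fell, where 15.5% and 11.2% of all genes did. The neuronal marker elav, the only tested marker of another tissue, rose by 0.29 in Med12 dsRNA cells (limma, adjusted p = 0.0209) and was higher by 0.23 in Med12 and Med13 than in Cdk8 and CycC dsRNA cells (0.0352). The part of these marker changes in the CycH and Cdk7 results was not tested.

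**Figure D2:**
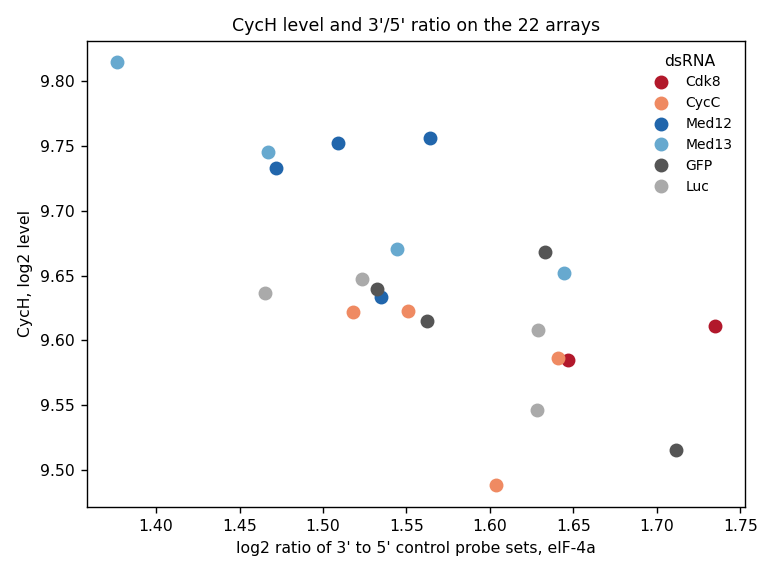
Log2 level of CycH (vertical axis) against the log2 ratio of 3′ to 5′ control signal for eIF-4a (horizontal axis) on the 22 arrays, coloured by dsRNA group. The highest CycH value, 9.81 on a Med13 array, had the lowest ratio, 1.38, and over all arrays Pearson's r was -0.69.

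Among the other subunits of TFIIH, 7 of 8 listed genes were tested. In Cdk8 dsRNA cells 1 of the 7 fell, where 8.07% of all genes did. In CycC dsRNA cells 1 rose, in Med12 dsRNA cells 2 and in Med13 dsRNA cells 1, where 13.4%, 26.5% and 21% of all genes rose. Median differences were 0.04, 0.03, 0.10 and 0.06 in that order, beside 0.02, 0.01, 0.04 and 0.03 over all genes. Mat1, the third protein of the Cdk7 kinase module, passed no test and had differences of -0.03, -0.02, -0.04 and -0.02.

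The core subunit mrn (Tfb2) rose by 0.19 ± 0.05 in Med12 dsRNA cells (limma, adjusted p = 0.00317) and by 0.20 ± 0.05 in Med13 dsRNA cells (0.00214), and both calls were kept in all refits. The helicase hay, the fly XPB, rose by 0.17 ± 0.04 in CycC dsRNA cells (adjusted p = 0.00942). Its call in Med12 dsRNA cells (0.12 ± 0.04, adjusted p = 0.0365) was lost in 6 of 22 refits without 1 array and in 8 of 12 other refits. Tfb4, a core subunit, fell by 0.16 ± 0.05 in Cdk8 dsRNA cells (adjusted p = 0.0251), and without Cdk8 array 1 or 2 the call was lost (adjusted p = 0.187 and 0.126), as it was against GFP alone (0.0663).

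Between Med12 and Med13 dsRNA cells and Cdk8 and CycC dsRNA cells 3 of 7 TFIIH genes were higher and 0 lower, where 26.9% and 22.2% of all genes were. They were mrn (0.14 ± 0.04, adjusted p = 0.0113), Tfb4 (0.12 ± 0.03, adjusted p = 0.00607) and Ssl1 (0.12 ± 0.05, adjusted p = 0.036), the last named after its value was seen. With the mean 3′ to 5′ ratio as a covariate none of the 3 passed, and mrn did not pass without Cdk8 array 2 (0.13, adjusted p = 0.0572).

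Cdk9, the kinase of P-TEFb, passed in no contrast between groups. Its log2 level averaged 9.34 ± 0.11 in Cdk8 dsRNA cells (SD, n = 2), 9.33 ± 0.05 in CycC dsRNA cells, 9.39 ± 0.08 in Med12 dsRNA cells and 9.36 ± 0.07 in Med13 dsRNA cells (n = 4 each), against 9.31 ± 0.04 in controls (n = 8). All 22 arrays lay between 9.25 and 9.49. The largest difference, in Med12 dsRNA cells, was 0.08 ± 0.04 (limma, adjusted p = 0.113), with an interval on the linear scale from 99.8% to 112.0% of the control level, and 2 of its 4 arrays were above all controls. The levels ordered as Med12, Med13, Cdk8, CycC, Luc and GFP, and all neighbours overlapped. Cdk9 also fell as the eIF-4a ratio grew, with r = -0.54 (permutation p = 0.00803, adjusted 0.0361 over the 18 relations) and rho = -0.43 (permutation p = 0.0436, adjusted 0.178). Without the 2 farthest arrays r was -0.37, and within groups it was -0.56 (permutation p = 0.0149, adjusted 0.134).

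CycT, the cyclin of P-TEFb, varied most between arrays of a group. Its log2 level was 7.15 and 7.24 on the Cdk8 dsRNA arrays, 7.12, 7.50, 7.08 and 7.16 on the CycC dsRNA arrays, 7.26, 7.19, 7.38 and 7.27 on the Med12 dsRNA arrays and 7.05, 6.93, 7.29 and 7.28 on the Med13 dsRNA arrays, against 6.64 to 7.26 with a median of 7.16 on the controls. The low end of the controls was Luc array 1, and CycC array 2 was the highest of all 22 arrays. All groups overlapped the controls, although 3 of 4 Med12 arrays were above every control.

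The largest CycT difference was 0.18 ± 0.10 in Med12 dsRNA cells, or 113.0% of the control level (interval 98.3% to 130.0%; limma, adjusted p = 0.15), and it was 0.11 without Luc array 1 (adjusted p = 0.274). In Cdk8, CycC and Med13 dsRNA cells CycT was at 107.1%, 108.3% and 102.7% of the control level, none of which passed (adjusted p = 0.649, 0.43 and 0.794). Without Luc array 1 these 3 log2 differences were 0.03, 0.05 and -0.03. Between GFP and Luc the difference was 0.13 with that array and 0.00 without it. A CycT difference would have needed a log2 size of about 0.24 to 0.36 to pass, against 0.10 to 0.15 for CycH, so that CycT was the transcript measured with the least precision.

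**Figure D3:**
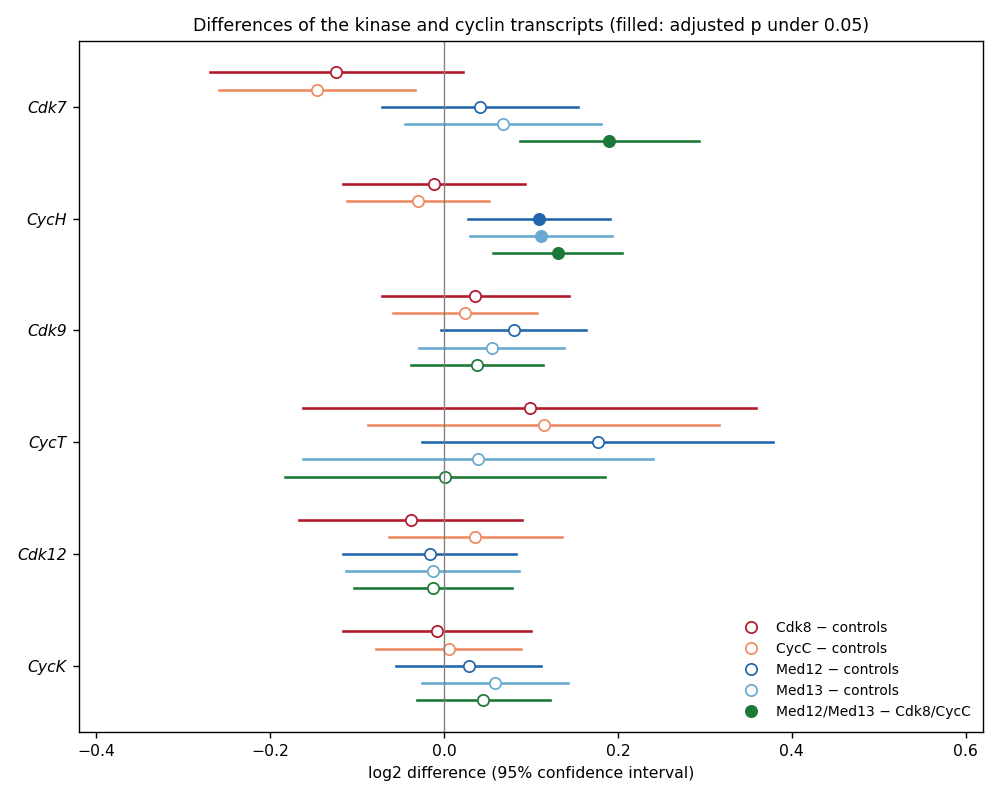
Log2 difference of each transcript (horizontal axis, with 95% confidence intervals as bars) in the 4 knockdowns against the controls and in Med12 and Med13 against Cdk8 and CycC dsRNA cells; filled circles passed an adjusted p of 0.05. Filled circles belong only to Cdk7 (0.19) and CycH (0.11, 0.11 and 0.13), and the intervals of CycT are the widest.

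The regulators of P-TEFb comprise the proteins that hold it inactive in the 7SK particle (Hexim, Larp7 and bin3) and those of the super elongation complex (lilli, ear, Su(Tpl) and Eaf). Of 8 listed genes 7 were tested, and no median moved by more than 0.03. Hexim, the inhibitor of P-TEFb, fell by 0.16 ± 0.04 in CycC dsRNA cells (limma, adjusted p = 0.00772), and in Cdk8 dsRNA cells its difference was -0.15 ± 0.06 (adjusted p = 0.07). Eaf, which binds the elongation factor encoded by Su(Tpl), fell by 0.14 ± 0.04 in Med12 dsRNA cells (adjusted p = 0.00766), though not against GFP alone (-0.12, adjusted p = 0.0588). Its calls in CycC dsRNA cells (0.11 ± 0.04, adjusted p = 0.0431) and in Med13 dsRNA cells (-0.11 ± 0.04, adjusted p = 0.0469) were lost in 9 and 12 of 22 refits without 1 array.

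Hexim and Eaf differed in opposite directions between the kinds of knockdown. Hexim was higher by 0.19 ± 0.04 in Med12 and Med13 than in Cdk8 and CycC dsRNA cells (adjusted p = 0.00034), and Eaf was lower, at -0.24 ± 0.04 (adjusted p = 1.63e-05). These last calls were kept in all refits. The other 5, Larp7, bin3, lilli, ear and Su(Tpl), passed in none of these contrasts.

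Factors of pausing and elongation, on which P-TEFb acts, numbered 11 tested of 13 listed. In Cdk8 dsRNA cells 1 rose (10.6% of all genes did) and in CycC dsRNA cells 2 rose (13.4%). In Med12 dsRNA cells 1 fell (15.5% of all genes did), as did 1 in Med13 dsRNA cells (11.2%). Spt5, a pausing factor that P-TEFb phosphorylates, rose by 0.19 ± 0.04 in Cdk8 dsRNA cells (limma, adjusted p = 0.00324), a call lost without Cdk8 array 2 (0.17, adjusted p = 0.0598). It rose by 0.16 ± 0.03 in CycC dsRNA cells (adjusted p = 0.000911). NELF-B, a subunit of the negative elongation factor, rose by 0.16 ± 0.04 in CycC dsRNA cells (adjusted p = 0.00752).

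The Spt5 partner spt4 fell by 0.25 ± 0.05 in Med12 dsRNA cells (adjusted p = 0.000809) and by 0.18 ± 0.05 in Med13 dsRNA cells (adjusted p = 0.0123), the second call being lost without Med13 array 3 (-0.14, adjusted p = 0.0706) and against Luc alone (-0.16, adjusted p = 0.069). In Med12 and Med13 dsRNA cells 3 of 11 were lower than in Cdk8 and CycC dsRNA cells and 0 higher, where 22.2% and 26.9% of all genes were, so that the share that was lower was near that of all genes. The differences were -0.18 ± 0.03 for Spt5, -0.18 ± 0.04 for NELF-B and -0.14 ± 0.05 for spt4 (adjusted p = 3.25e-05, 0.000698 and 0.0215). The call for spt4 was lost without Cdk8 array 2 (-0.11, adjusted p = 0.123) and with the mean 3′ to 5′ ratio as a covariate (-0.13, adjusted p = 0.0812).

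Cdk12, a kinase of the polymerase tail, passed in no contrast between groups. It averaged 8.92 ± 0.09 in Cdk8 dsRNA cells (SD, n = 2), 8.99 ± 0.04 in CycC dsRNA cells, 8.94 ± 0.11 in Med12 dsRNA cells and 8.94 ± 0.07 in Med13 dsRNA cells (n = 4 each), against 8.96 ± 0.07 in controls (n = 8). The 22 arrays ran from 8.83 to 9.12, and the extremes were a Med12 and a GFP array. Differences were -0.04, 0.04, -0.02 and -0.01 (limma, adjusted p = 0.722, 0.649, 0.812 and 0.864). Between Med12 and Med13 and Cdk8 and CycC dsRNA cells the difference was -0.01 ± 0.04 (interval -0.10 to 0.08). Its levels ordered as CycC, GFP, Med13, Med12, Luc and Cdk8, and no neighbours were apart.

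CycK, the cyclin of Cdk12, passed in none of these contrasts either. It averaged 10.86 ± 0.12 in Cdk8 dsRNA cells (SD, n = 2), 10.87 ± 0.03 in CycC dsRNA cells, 10.89 ± 0.04 in Med12 dsRNA cells and 10.92 ± 0.08 in Med13 dsRNA cells (n = 4 each), against 10.86 ± 0.06 in controls (n = 8). All arrays lay between 10.74 and 11.01, the lowest being Luc array 1 and the highest Med13 array 3. The largest difference was 0.06 ± 0.04 in Med13 dsRNA cells, or 104.1% of the control level (interval 98.3% to 110.4%; limma, adjusted p = 0.287). Its levels ordered as Med13, Med12, GFP, CycC, Cdk8 and Luc, all overlapping their neighbours. CycK also fell as a 3′ to 5′ ratio grew, that of GAPDH, with r = -0.61 (permutation p = 0.0023, adjusted 0.0138 over the 18 relations) and rho = -0.60 (permutation p = 0.00416, adjusted 0.0374). Without the 2 farthest arrays r was -0.50, and within groups it was -0.57 (permutation p = 0.0327, adjusted 0.196).

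Partners of Cdk12 on the polymerase tail included 4 tested of 7 listed genes. Fcp1, a phosphatase that removes tail phosphates, rose by 0.24 ± 0.05 in Cdk8 dsRNA cells (limma, adjusted p = 0.00282) and by 0.19 ± 0.04 in CycC dsRNA cells (0.00236). In Med12 and Med13 dsRNA cells its differences were 0.05 and 0.08 (adjusted p = 0.354 and 0.137), and the direct contrast with Cdk8 and CycC dsRNA cells was -0.15 ± 0.04 (adjusted p = 0.00304). Set2, a histone methyltransferase that binds the phosphorylated tail, rose by 0.24 ± 0.07 in CycC dsRNA cells (adjusted p = 0.0119). That call was lost without CycC array 2 (0.20, adjusted p = 0.0553) or CycC array 3 (0.21, adjusted p = 0.0505) and against GFP alone (0.19, adjusted p = 0.102). Ssu72 and Pcf11 passed in no contrast.

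In human cells CDK12 is known for sustaining the expression of DNA damage response genes, and such genes were listed for that reason. This list, like the others, was chosen with earlier results of these data known. The counts below therefore describe these arrays and are no independent test. Of 17 listed 15 were tested, and 9 rose in Med12 dsRNA cells and 8 in Med13 dsRNA cells, with none lower, where 26.5% and 21% of all genes were higher. Their median difference was 0.14 and 0.13, beside 0.04 and 0.03 over all genes. In Cdk8 dsRNA cells 1 rose and 1 fell (10.6% and 8.07% of all genes did), and in CycC dsRNA cells 2 rose and 1 fell (13.4% and 10.9%). Cdk12 itself had no difference past the test in any of these cells.

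Ku80, which binds broken DNA ends, rose by 0.36 ± 0.07 in Med12 dsRNA cells (limma, adjusted p = 0.000677) and by 0.30 ± 0.07 in Med13 dsRNA cells (0.00374). The members of the end-resection complex mre11 and rad50 rose by 0.28 ± 0.04 and 0.26 ± 0.05 in Med12 dsRNA cells (3.94e-06 and 0.000381). In Med13 dsRNA cells they rose by 0.16 ± 0.04 and 0.22 ± 0.05 (0.00196 and 0.00248). The checkpoint kinase lok, the fly Chk2, rose by 0.29 ± 0.05 in Med12 dsRNA cells (4.84e-05) and by 0.21 ± 0.05 in Med13 dsRNA cells (0.00194).

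The checkpoint kinase grp, the fly Chk1, rose in all 4 knockdowns, by 0.28 ± 0.05 in Cdk8, 0.17 ± 0.03 in CycC, 0.14 ± 0.03 in Med12 and 0.16 ± 0.03 in Med13 dsRNA cells (limma, adjusted p = 0.000146, 0.000885, 0.00242 and 0.00171). Fancd2, of the Fanconi anaemia repair pathway, rose by 0.13 ± 0.04 in Med12 dsRNA cells and 0.19 ± 0.04 in Med13 dsRNA cells (0.0184 and 0.00187), the first being lost after quantile normalization (0.08, adjusted p = 0.145), against Luc alone (0.12, 0.0587), with the mean of its probe sets (0.10, 0.119), and without Med12 array 1 (0.11, 0.0761) or Med12 array 4 (0.12, 0.0558). The fall in Cdk8 and CycC dsRNA cells was in tefu, the fly ATM, by 0.21 ± 0.07 and 0.18 ± 0.05 (0.027 and 0.0117), named after its values were seen. No gene of the DNA damage list fell in Cdk8 dsRNA cells without the floor, with only the groups compared in the fit or against GFP alone. The fall of tefu in Cdk8 dsRNA cells also passed only with both Cdk8 arrays. None of that list fell in CycC dsRNA cells against GFP alone.

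Of 9 listed cyclins and kinases of the cell cycle, some of which Cdk7 activates, 6 were tested. In Cdk8 dsRNA cells 4 rose (10.6% of all genes did), in CycC dsRNA cells 4 (13.4%), in Med12 dsRNA cells 2 (26.5%) and in Med13 dsRNA cells 3 (21%), and none fell. Their median differences were 0.38, 0.31, 0.06 and 0.09 in that order, beside 0.02, 0.01, 0.04 and 0.03 over all genes and -0.01, 0.01, 0.06 and 0.06 over the 6 transcripts described here. In Cdk8 and CycC dsRNA cells the 4 were CycE, CycB, CycB3 and Cdk2 in both. The S-phase cyclin CycE rose by 0.58 ± 0.12 in Cdk8 dsRNA cells and by 0.52 ± 0.09 in CycC dsRNA cells (limma, adjusted p = 0.00112 and 0.000201). In Med12 and Med13 dsRNA cells it had differences of -0.06 and -0.14 (adjusted p = 0.647 and 0.252), and it was lower there than in Cdk8 and CycC dsRNA cells by a log2 value of -0.64 ± 0.08 (1.58e-06).

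The mitotic cyclin CycB rose by 0.42 ± 0.05 in Cdk8 dsRNA cells, 0.34 ± 0.04 in CycC dsRNA cells and 0.17 ± 0.04 in Med12 dsRNA cells (2.81e-06, 6.87e-07 and 0.00119). The 3 calls in Med13 dsRNA cells were all lost after centring the arrays on their medians, and the count was 0 without Med13 array 3, 0 without Med13 array 4 and 1 without Med13 array 2. Outside the cell cycle, Cdk5, a kinase best known from neurons, fell by 0.16 ± 0.04 in CycC dsRNA cells (limma, adjusted p = 0.00918) and rose by 0.19 ± 0.04 in Med12 dsRNA cells (0.000955). It was higher by 0.28 ± 0.04 in Med12 and Med13 than in Cdk8 and CycC dsRNA cells (5.3e-06). Its fall in CycC dsRNA cells was lost without CycC array 3 (-0.12, adjusted p = 0.0625) and against Luc alone (-0.12, adjusted p = 0.0842). Of the other 4 tested genes of that list, Cdk8 and CycC were the targets, and Eip63E and CycY passed in no contrast.

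**Figure D4:**
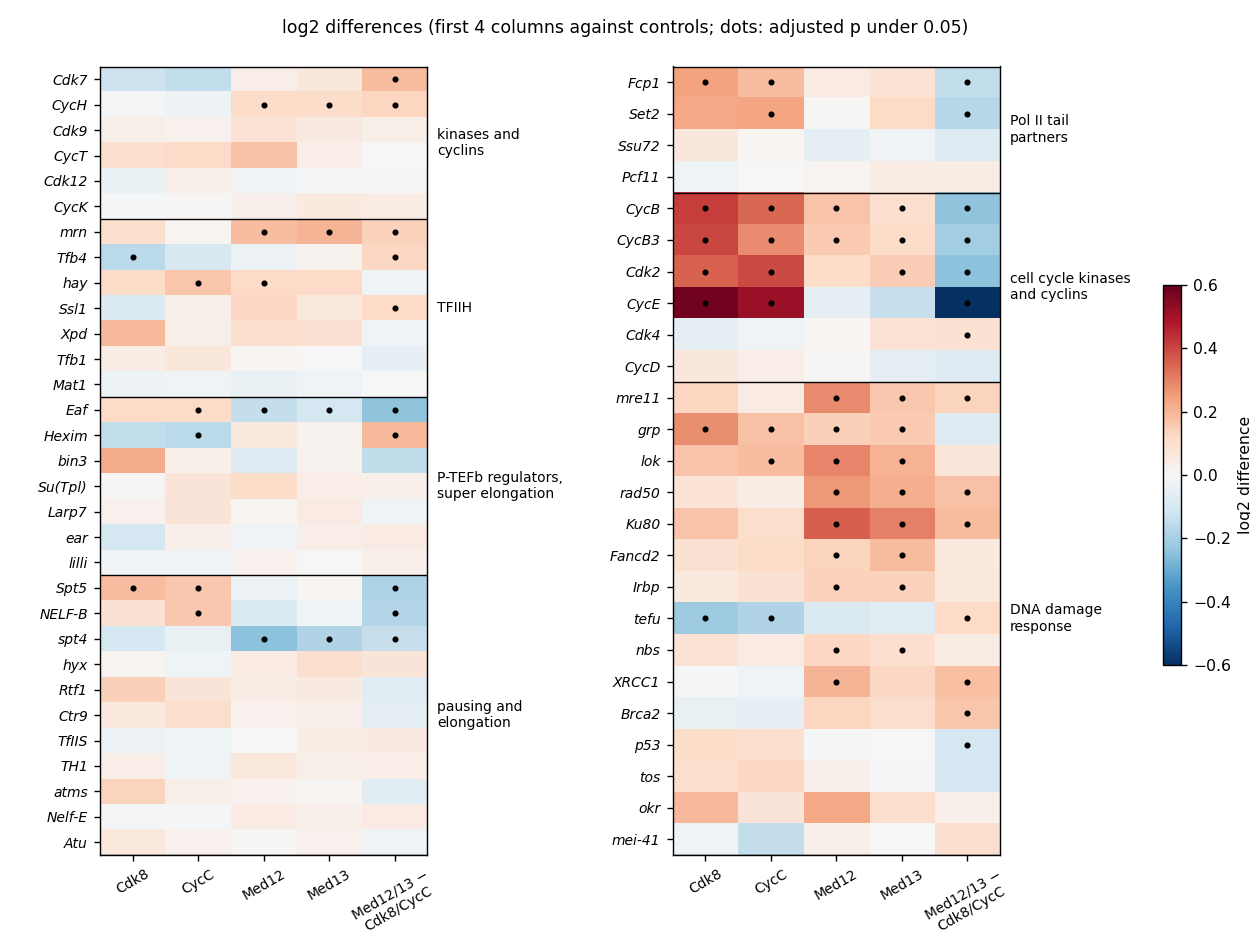
Log2 differences (colour, red higher and blue lower) of the 6 transcripts and the tested genes of each list, in the 4 knockdowns against controls and in Med12 and Med13 against Cdk8 and CycC dsRNA cells (last column); dots mark an adjusted p under 0.05. The cell cycle block is darkest in Cdk8 and CycC dsRNA cells, where CycE reached 0.58 and 0.52, and the DNA damage block in Med12 and Med13 dsRNA cells, where Ku80 reached 0.36 and 0.30.

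The transcripts can also be ordered by how far their 6 group means lie apart. The distance from the highest to the lowest group mean was 0.24 for CycT, 0.21 for Cdk7, 0.14 for CycH, and 0.08, 0.08 and 0.07 for Cdk9, CycK and Cdk12, beside 0.21 for the median gene. For Cdk12, CycK and Cdk9, only 5.54%, 5.89% and 7.23% of all genes had a smaller distance. The SD of arrays around their group means was 0.17 for CycT, 0.09 for Cdk7, 0.08 for Cdk12 and 0.06 for CycH, Cdk9 and CycK, beside 0.08 for the median gene. The distance for CycT thus came with a wide spread within groups, whereas that for Cdk7 did not stand much above the median gene in either measure.

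Of the kinase and cyclin pairs that form a complex, only Cdk7 and CycH had an r over the 22 arrays that passed after adjustment. Among 15 relations between the 6 transcripts, Cdk7 and CycH had r = 0.57 (permutation p = 0.00572, adjusted 0.0286) and rho = 0.41 (permutation p = 0.057, adjusted 0.171). Without the 2 farthest arrays r was 0.48, and within groups it was 0.30 (permutation p = 0.231, adjusted 0.385). Cdk9 and CycT had r = -0.09 (permutation p = 0.678, adjusted 0.859), and Cdk12 and CycK had r = -0.37 (permutation p = 0.0869, adjusted 0.175). Within groups these were -0.32 and -0.47 (permutation p = 0.128 and 0.0383, adjusted 0.285 and 0.129).

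Relations across complexes were of like size. CycH and Cdk9 had r = 0.61 (permutation p = 0.00236, adjusted 0.0286) and rho = 0.56 (permutation p = 0.00853, adjusted 0.0946), with r = 0.48 without the 2 farthest arrays. CycT and CycK had r = 0.58 (permutation p = 0.0057, adjusted 0.0286) and rho = 0.53 (permutation p = 0.0126, adjusted 0.0946), with r = 0.37 without the 2 farthest. For CycH with CycK r was 0.51 and rho 0.46, and for CycH with Cdk12 r was -0.52 and rho -0.39 (permutation p of r = 0.0137 and 0.0135, adjusted 0.0411 for both, and of rho = 0.03 and 0.0737, adjusted 0.113 and 0.184). Without the 2 farthest arrays these r were 0.50 and -0.43. Within groups the 4 relations had r of 0.54, 0.65, 0.43 and -0.66 (permutation p = 0.021, 0.00684, 0.043 and 0.00525, adjusted 0.105, 0.0513, 0.129 and 0.0513), so that none passed there after adjustment. CycH and Cdk9 both fell as the eIF-4a ratio grew (r = -0.69 and -0.54). CycH and CycK both fell as the GAPDH ratio grew (r = -0.64 and -0.61). With the GAPDH ratio Cdk12 had r = 0.40 (permutation p = 0.0622, adjusted 0.16) and CycT r = -0.25 (permutation p = 0.258, adjusted 0.387). The part of these ratios in the relations between transcripts was not tested.

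The genes most alike in pattern were found by Pearson's r with each transcript over the 22 arrays among all genes tested, as a description without a test, since the highest of so many values is high by choice. Tim23 (0.86) and Vps28 (0.85) were closest to Cdk7, and Arc42 (0.90) and CG5721 (0.90) to CycH. For Cdk9 they were PolZ2 (0.81) and CG14182 (0.78), and for CycT, ACC (0.82) and Eps-15 (0.77). Cdk12 was closest to CG10011 (0.79) and flw (0.77), and CycK to dor (0.76) and Bap60 (0.75). No member of the set was among these nearest genes of another.

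The smaller contrasts could show only large differences in the 6 transcripts. Between Cdk8 and CycC dsRNA cells, between Med12 and Med13 dsRNA cells and between GFP and Luc dsRNA cells, 0 of 6 passed in limma, where 0.101%, 0.872% and 0.0336% of all genes did, and 0 of 6 had an unadjusted p under 0.05 in each, where 4.86%, 11.1% and 5.55% of all genes did. The largest of these differences was 0.14 ± 0.11, for CycT between Med12 and Med13 dsRNA cells (adjusted p = 0.719), with an interval on the linear scale from 93.6% to 129.3%. To pass, a difference would have needed a log2 size of 0.28 to 0.70 between Cdk8 and CycC, 0.19 to 0.47 between Med12 and Med13 and 0.43 to 1.06 between GFP and Luc dsRNA cells, so that the counts of 0 do not show equal levels.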

How the data were processed

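RNA of 22 S2 cell samples was measured on Affymetrix arrays, from 4 µg of total RNA each per the labels' protocols. The deposited intensity values were made with GCRMA, per the submitters' processing notes, a method of background correction, between-array normalization and probe summary. Its version and settings and the genome build are not given in the sources used here. GCRMA pulls dim probes to a common low value and removes a uniform change of all transcripts. Intensities were linear (2.02 to 70939) and were converted to log2.

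Of 18952 probe sets, 183 controls were left out, and 13647 had 1 symbol, 402 several and 4720 none. Gene identifiers of 13544 were found in a RefSeq table for Release 6, which was used only for names and changed no symbol. Probe sets with a log2 of 4 or more (intensity 16) on at least 2 arrays were kept, and the brightest represented a gene, which left 5961 genes. In R 4.3.3, limma 3.58.1 estimated a mean per dsRNA group from the 22 arrays (16 residual degrees of freedom), with two-sided tests adjusted by Benjamini-Hochberg over all 5961 genes at 0.05. Controls were the mean of the GFP and Luc groups. The number of arrays limits the precision, and the moderated SD of the median gene was 0.0793. No 2 arrays held identical values, and no batch was recorded in the labels. The procedure was checked on simulated data.

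Alternatives changed the scaling, filter, probe set rule, controls, arrays fitted, eBayes trend and replicate block, and left out each array in turn. Others were chosen after seeing the data. They added the mean of the Act5C, GAPDH and eIF-4a 3′ to 5′ ratios as a covariate, or left out both Luc array 1 and CycC array 2. Same-numbered arrays were not taken as paired. The 6 transcripts, the lists and the rule for named genes were chosen with earlier results of these data known. From each list the text names genes past the threshold in a comparison with controls (at most 6, by F-test p), and for each transcript the 2 genes most correlated with it. Listed genes without a single-symbol probe set over the floor are not analysed here.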

Additional observations from a re-analysis of the deposited data

Results flagged for a closer look

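The Cdk12 value of GFP array 4, 9.12 on the log2 scale, lay far from the other 3 GFP arrays, which ran from 8.93 to 8.96. It was 1 such value in 30 sets of 4 arrays checked, and chance gives about 5%.

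Cdk7 was higher in Med12 and Med13 dsRNA cells than in Cdk8 and CycC dsRNA cells by a log2 value of 0.19 (limma, adjusted p = 0.00327), a difference between knockdowns tested directly. CycH differed in the same contrast by 0.13 (limma, adjusted p = 0.00469), and by 0.078 with the mean 3′ to 5′ ratio as a covariate (adjusted p = 0.12).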

How the results depend on the processing

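Over all refits no difference of the 6 transcripts that had passed changed direction. The 4 that passed were lost in 20 of 132 refits, none of them for Cdk7, and of 44 that had not passed, tried in 1452 refits, 7 passed, all for Cdk7 in CycC dsRNA cells. Among 130 differences of named listed genes in 4368 refits, 118 lost and 54 gained the call and 0 that had passed reversed.

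The count of the 6 transcripts that passed in CycC dsRNA cells was 1 in place of 0 with arrays centred on their medians, with quantile normalization and with the replicate block. In Med12 dsRNA cells it was 0 in place of 1 with centring (CycH 0.085), GFP alone (0.11), Luc alone (0.11) and the 3′ to 5′ covariate (0.079). In Med13 dsRNA cells it was 0 in place of 1 with centring (CycH 0.079), quantile normalization (0.10), GFP alone (0.11), Luc alone (0.11), only the groups compared in the fit (0.11) and the covariate (0.064). In the contrast of Med12 and Med13 with Cdk8 and CycC dsRNA cells it was 1 in place of 2 with the covariate (CycH 0.078). The causes were not tested.

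Genes that passed between GFP and Luc numbered 2, against 4 with centring, 4 with quantile normalization and 5 with the replicate block. Between Cdk8 and CycC they numbered 6, against 3 with only those groups fitted and 3 without Luc array 1 and CycC array 2. Between Med12 and Med13 they numbered 52, against 33 with only those groups. Of genes that passed, 1577 rose and 922 fell in Med12 dsRNA cells (1331 and 1130 with centring, 1297 and 1110 with quantile normalization), and 1249 rose and 669 fell in Med13 dsRNA cells (943 and 911, and 1030 and 842).

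Leaving out 1 array at a time gave 536 to 1180 genes in Cdk8 dsRNA cells, the low end without 1 of its 2 arrays, 1140 to 1509 in CycC, 2146 to 2557 in Med12, 1568 to 1958 in Med13 and 2461 to 3012 in the contrast of these groups, with 3 to 8 between Cdk8 and CycC, 25 to 69 between Med12 and Med13 and 2 to 10 between GFP and Luc. The 6 transcripts gave 0 to 1 in CycC, 0 to 1 in Med12 and 0 to 1 in Med13 dsRNA cells. They gave 2 in the contrast of Med12 and Med13 with Cdk8 and CycC dsRNA cells. CycH moved between 0.093 and 0.14 in Med12, 0.080 and 0.13 in Med13 and 0.12 and 0.15 in that contrast.

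Groups shared replicate numbers. Deviations from the group means correlated with a median of 0.088 over 50 same-numbered pairings of arrays (-0.24 to 0.44, 25 of them over 0.1), against -0.038 over other pairings, and 12 of 22 arrays correlated best with their own number. This is a hint of shared conditions in the data, but not every pairing was over 0.1 and the labels give no pairing, so the block was kept as an alternative. With the replicate block 1270, 1549, 2637 and 2026 genes passed in Cdk8, CycC, Med12 and Med13 dsRNA cells, against 1113, 1445, 2499 and 1918 without it.

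Limits are those of 2 to 4 arrays a group on 1 platform. Probe sets measure transcripts, not kinase activity or protein. GCRMA values carry no detection call, and skd fell little in Med13 dsRNA cells. In the median Med12 and Med13 array the 3′ to 5′ ratios of eIF-4a and GAPDH were lower than in the median control. That of Act5C was higher (1.40 and 1.36 against 1.35).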
